A study of Mus musculus with 25 samples.

Results

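The introns described here are the long internal introns of mouse genes: those of more than 10000 bases that are neither the first nor the last of their gene. They were chosen by length and position alone, from the intron coordinates that every deposited file lists, and no read count entered the choice. There were 7902 such introns, in 3634 of the 17596 genes listed, out of 163337 introns of all kinds (4.84%) and 129623 internal introns (6.10%).

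The reads came from whole mammary tumors of 4 transplanted mouse models of triple-negative breast cancer, each begun in genetically engineered mice. T11 and 2208L were grown in Balb/c females, and PyMT-M and AT3 in C57BL/6 females, aged 4 to 5 weeks at transplant. Mice received the splicing modulator H3B-8800 or vehicle daily and the tumors were kept in RNAlater. Stranded sequencing of polyadenylated RNA gave 25 libraries, which form 8 groups, with 3 H3B-8800 and 3 vehicle libraries in T11, 4 and 4 in PyMT-M, 2 and 3 in AT3, and 3 and 3 in 2208L. The labels class PyMT-M and 2208L as responders and T11 and AT3 as nonresponders. The design text calls the replicates separate tumors. Whole tumors hold stroma and immune cells beside tumor cells, so a shift in cell types and a shift within cells cannot be told apart.

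Splicing removes an intron in the nucleus once the spliceosome has recognised its ends and its branch point, the site that the SF3B complex binds within the U2 particle. H3B-8800 binds SF3B. RNA polymerase takes far longer to cross a long intron than a short one, so a gene with long introns carries unspliced RNA for longer while it is transcribed, and many long introns also hold other transcripts, pseudogenes or alternative exons. Polyadenylated RNA is mostly finished messenger RNA, which has left the nucleus with its introns removed. Reads from inside a long intron are therefore few, and can come from unspliced transcripts or from other RNAs encoded there.

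The joins below are the places where reads spliced across these introns meet. They are 60 bases of mature transcript from GENCODE M21, 30 from the exon before the intron and 30 from the exon after it, written 5′ to 3′ on the transcribed strand, with the last 3 bases of the upstream exon and the first 2 of the downstream exon in capitals. The first 5 introns are shown because their reads rose with H3B-8800 in 3 models, and the other 3 because they are the longest that could be read without an annotated exon inside. Positions are those of the introns in mm10.
Met intron 4 (chr6:17513542-17526312, plus strand): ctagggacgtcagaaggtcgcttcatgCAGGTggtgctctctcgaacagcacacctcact
Rbms1 intron 5 (chr2:60763343-60779730, minus strand): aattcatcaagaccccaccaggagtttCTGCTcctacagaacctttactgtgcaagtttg
Ascc3 intron 30 (chr10:50735353-50748805, plus strand): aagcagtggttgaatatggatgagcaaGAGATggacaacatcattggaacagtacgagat
Hdgfrp2 intron 3 (chr17:56082416-56093521, plus strand): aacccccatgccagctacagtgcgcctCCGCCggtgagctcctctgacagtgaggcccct
Gna12 intron 2 (chr5:140762641-140785396, minus strand): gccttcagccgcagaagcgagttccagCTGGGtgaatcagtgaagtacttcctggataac
Exoc6b intron 20 (chr6:84625238-84746900, minus strand): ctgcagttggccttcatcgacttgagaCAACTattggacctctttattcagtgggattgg
Farp1 intron 2 (chr14:121102183-121207253, plus strand): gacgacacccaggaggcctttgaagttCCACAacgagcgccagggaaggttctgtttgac
Atg10 intron 5 (chr13:90937391-91022569, minus strand): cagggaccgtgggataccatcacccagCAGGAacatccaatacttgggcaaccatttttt

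The exons on either side of long internal introns were close to those beside shorter ones. The upstream exon ended in AG at 57.3% of the 7887 long internal introns with a matched junction, against 55.5% of 72923 internal introns over 300 and up to 3000 bases, called shorter introns from here on. The downstream exon began with G at 48.7% and 48.8%. The median upstream exon had 128 and 126 bases, and the median downstream exon 127 and 125. These values are descriptions of the annotation, with no test.

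The introns differed from shorter ones in what lies inside them. Their median length was 18028.5 bases, with quartiles at 12832 and 31164, and together they made up 34.1% of all listed intron sequence. The longest, intron 4 of Immp2l, spans 517820 bases. By length, 4409 were at most 20000 bases long, 2472 were longer than that and up to 50000, 739 longer still and up to 100000, and 282 above 100000. An exon of some annotated transcript lay inside 45.1% of them (3565), against 21.0% of shorter introns. Intron 2 of a gene was the commonest place, with 1904 of them.

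Many of these introns gave few reads. Over the 25 libraries they held 91018 to 518935 intronic reads each, 4.87% to 17.6% of all reads inside introns, for a sequence share of 34.1%. No library had a read inside 1005 of them. Genes expressed at 1 or more counts per 1000000 (CPM) in at least 2 libraries held 5957 of the long introns, and 1945 lay in other genes. Of all, 2815 in 1741 genes averaged 5 or more intronic reads and 10 or more spliced reads over the libraries, in an expressed gene, and were tested one by one.

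Libraries that stand apart bear on much of what follows. PyMT-M vehicle replicate 4 had 74.6% of its reads at long internal introns inside the intron, against 39.3%, 48.9% and 38.4% in the other PyMT-M vehicle libraries. Its median RPKM over long introns of expressed genes was 0.0226, and the other 24 libraries lay between 0.00181 and 0.00643. Most summary values for PyMT-M are therefore given with and without it, or library by library. Most changes at single introns, and the counts shared between models, are given only with it. In T11, reads inside introns ran against the labels over the whole table: of 52042 introns tested, 20% were lower and 0.715% higher in the libraries labelled H3B-8800, so T11 libraries are named by their labels only and no direction of the drug is read from them. AT3 has 2 H3B-8800 libraries, and they differ. Summed CPM of 8 skeletal muscle markers ranged from 1.86 to 5642 over the libraries, highest in T11 labelled vehicle replicate 3 and, at 3742, in 2208L vehicle replicate 1. Macrophage markers (5 genes) summed to 77.8 to 245 CPM in PyMT-M vehicle and 354 to 555 with H3B-8800, to 124 to 596 in 2208L vehicle and 1050 to 1163 with H3B-8800, and to 401 to 666 in T11 labelled vehicle and 692 to 778 labelled H3B-8800, with no overlap in these 3 models and none of the 5 at 0; AT3 groups overlapped, at 399 to 724 and 505 to 535. Of the 10 marker lists, 1 in PyMT-M, 4 in AT3, 5 in 2208L and 4 in T11 did not overlap between treatments. In AT3 the 3 neutrophil markers summed to 121.5 to 241.6 CPM in vehicle and 73.5 to 111.5 with H3B-8800, the 5 endothelial markers to 92.6 to 113.7 and 47.9 to 85.5, and the epithelial markers to 182.8 to 224.5 and 230.3 to 425. In 2208L neutrophil markers summed to 91.7 to 134.5 CPM in vehicle and 67.8 to 78.7 with H3B-8800, and in T11 the 5 T cell markers to 0.379 to 0.915 labelled vehicle and 4.03 to 80.8 labelled H3B-8800. The 4 basal markers summed to 13.1 to 20.1 CPM in 2208L vehicle and 159 to 335 with H3B-8800. Epithelial markers, 7 of 8 of which are in the files, summed to 3162 to 7446 CPM in PyMT-M and 2208L and to 103.1 to 425 CPM in AT3 and T11. The part of these differences in the results was not tested.

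Over all long internal introns together, no treatment difference in the share of reads lying inside passed the exact test with all libraries. It was 50.3% ± 16.9 (SD, n = 4) in PyMT-M vehicle and 49.5% ± 5.21 (n = 4) in PyMT-M with H3B-8800. Without vehicle replicate 4 the vehicle mean was 42.2% ± 5.83, which turned the difference from -0.786 to 7.33 percentage points (exact permutation test, 2-sided, p = 0.171). AT3 had 32.4%, 43.5% and 39.9% in vehicle and 49.3% and 45.3% with H3B-8800, which did not overlap; 2 against 3 libraries cannot give an exact p below 0.2, the value found. 2208L had 36.3%, 32.9% and 37.6% in vehicle and 37.2%, 38.3% and 34.0% with H3B-8800, which overlapped. T11 had 42.5%, 40.9% and 35.8% in libraries labelled vehicle and 35.2%, 34.7% and 39.8% in those labelled H3B-8800. The mean difference over the 4 models was 1.42 points (exact permutation within models, p = 0.621, adjusted p = 0.73 over the 20 tests of 4 measures in each model and over the 4). In settings chosen after seeing the data it was 3.45 points without PyMT-M vehicle replicate 4 (exact permutation p = 0.0893) and 4.29 without vehicle replicates 2 and 4 (exact permutation p = 0.0459). Over the 3 models without T11 it was 2.95 points with all libraries (exact permutation p = 0.428), 5.66 without replicate 4 (exact permutation p = 0.0183) and 6.78 without replicates 2 and 4 (exact permutation p = 0.006), none of them adjusted.

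The RPKM of long internal introns, which is per length and per library, passed no test in any model either. The mean of log2(RPKM + 0.05) over the 5957 long introns of expressed genes was -4.10 ± 0.029 (SD, n = 3) in 2208L vehicle and -4.02 ± 0.035 (n = 3) with H3B-8800, with no overlap and the smallest exact permutation p that 3 against 3 allow, 0.1. In AT3 it was -4.06 ± 0.057 (n = 3) and -3.99 ± 0.097 (n = 2). PyMT-M went from -3.91 ± 0.22 to -3.92 ± 0.048 (n = 4 each), and the vehicle mean without replicate 4 was -4.01 ± 0.032. The mean difference over the 4 models was 0.032 on this scale (exact permutation p = 0.378) and 0.059 without PyMT-M vehicle replicate 4 (exact permutation p = 0.0177, not adjusted, in a setting chosen after seeing the data). The median RPKM of these introns was 0.00181 to 0.0226 per library, below the 0.05 added. Most values therefore lay near the floor of the scale, which compresses differences. With 0.01 added instead, 2208L went from -5.98 ± 0.076 to -5.80 ± 0.088 (SD, n = 3 each).

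The long introns were then set beside shorter introns of the same genes. In 2483 expressed genes that hold long internal introns (5333) and shorter introns (19032), intronic reads per kilobase were counted in each class, per 1000000 spliced reads. In PyMT-M the long introns had 0.128 ± 0.087 in vehicle and 0.116 ± 0.033 with H3B-8800 (SD, n = 4 each), while the shorter introns had 0.257 ± 0.079 and 0.698 ± 0.18. For the long introns the PyMT-M vehicle libraries had 0.0762, 0.115, 0.0663 and, in replicate 4, 0.255. Those with H3B-8800 had 0.147, 0.105, 0.0748 and 0.137, so the lower mean with H3B-8800 rested on vehicle replicate 4. In AT3 the long introns had 0.058 ± 0.014 (n = 3) and 0.077 ± 0.015 (n = 2), and the shorter 0.212 ± 0.079 and 0.408 ± 0.23. In 2208L the long introns had 0.0563 ± 0.0049 and 0.0669 ± 0.0074 (n = 3 each), and the shorter 0.146 ± 0.047 and 0.325 ± 0.036. T11 showed 0.064 ± 0.010 labelled vehicle and 0.0587 ± 0.010 labelled H3B-8800 in long introns, and 0.301 ± 0.12 and 0.166 ± 0.045 in shorter ones (n = 3 each).

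As a ratio, the density of long over shorter introns lay lower in every H3B-8800 library than in any vehicle library of PyMT-M and 2208L, though no single model passed adjustment. On the log2 scale the vehicle libraries of PyMT-M stood at -1.97, -0.54, -1.72 and -0.43 and the H3B-8800 libraries at -2.62, -2.80, -2.62 and -2.33, with no overlap. The means differed by -1.43 (exact permutation p = 0.0286, the smallest that 4 against 4 allow; adjusted p = 0.176 over 20 tests), by -1.18 without vehicle replicate 4 and by -0.75 without vehicle replicates 2 and 4. 2208L had -0.78, -1.72 and -1.45 in vehicle and -2.41, -2.07 and -2.36 with H3B-8800, a difference of -0.96 with no overlap (exact permutation p = 0.1, the smallest possible). Vehicle replicate 1, the 2208L library rich in muscle markers, was the highest of them, and the difference was -0.69 without it. The AT3 libraries with H3B-8800 stood at -1.89 and -2.70, against -1.74, -2.04 and -1.72 in vehicle, which overlapped; the difference of -0.46 was -0.061 without H3B-8800 replicate 2.

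T11 differed from the others in sign. Libraries labelled vehicle had -1.74, -2.47 and -2.30 and libraries labelled H3B-8800 -1.29, -1.53 and -1.63, a difference of 0.69 with no overlap (exact permutation p = 0.1). Over the 4 models the mean difference was -0.54 (exact permutation p = 0.0257, adjusted p = 0.176 over 20 tests). Leaving out T11 gave -0.95 (exact permutation p = 0.000286), and leaving out PyMT-M vehicle replicate 4 as well gave -0.87 (exact permutation p = 0.000571); T11 was left out with its direction already known. Over the 4 models, p rose to 0.0555 without T11 labelled vehicle replicate 1 (-0.49) and to 0.0563 without AT3 H3B-8800 replicate 2 (-0.44), both by the same exact permutation test; without PyMT-M vehicle replicates 2 and 4 it was 0.0704 (-0.37, exact permutation). Without the 20 long introns with most reads the mean difference was -0.49 (exact permutation p = 0.0316), and with introns free of annotated exons on both sides it was -0.60 (exact permutation p = 0.0231).

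Splicing across the long introns was read from the reads that cross them, relative to shorter introns of the same genes. The mean number of spliced reads per long intron over that per shorter intron of the same genes was, in log2, -0.175 ± 0.048 in PyMT-M vehicle and 0.006 ± 0.032 with H3B-8800 (SD, n = 4 each), with every H3B-8800 library above every vehicle library (difference 0.18; exact permutation p = 0.0286, adjusted p = 0.176). The difference was 0.16 without vehicle replicate 4. In AT3 the values were -0.244 ± 0.033 (n = 3) and -0.190 ± 0.043 (n = 2), in 2208L -0.290 ± 0.013 and -0.299 ± 0.014, and in T11 -0.260 ± 0.049 labelled vehicle and -0.299 ± 0.021 labelled H3B-8800 (n = 3 each). The PyMT-M difference exceeded that of 2208L by 0.19 (exact permutation of labels within models, adjusted p = 0.0429 over 24 pairs of models and measures). Over genes rather than reads, the median difference in PyMT-M was 0.069, in 620 genes with enough reads. The higher PyMT-M ratio does not by itself show more splicing across long introns. Scaled per library, spliced reads per long intron were 2.774 ± 0.32 in PyMT-M vehicle and 2.833 ± 0.35 with H3B-8800. Per shorter intron they were 3.129 ± 0.33 and 2.825 ± 0.38, so the means moved more at shorter introns. Vehicle and H3B-8800 libraries overlapped in each class, and neither class was tested alone.

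**Figure D1:**
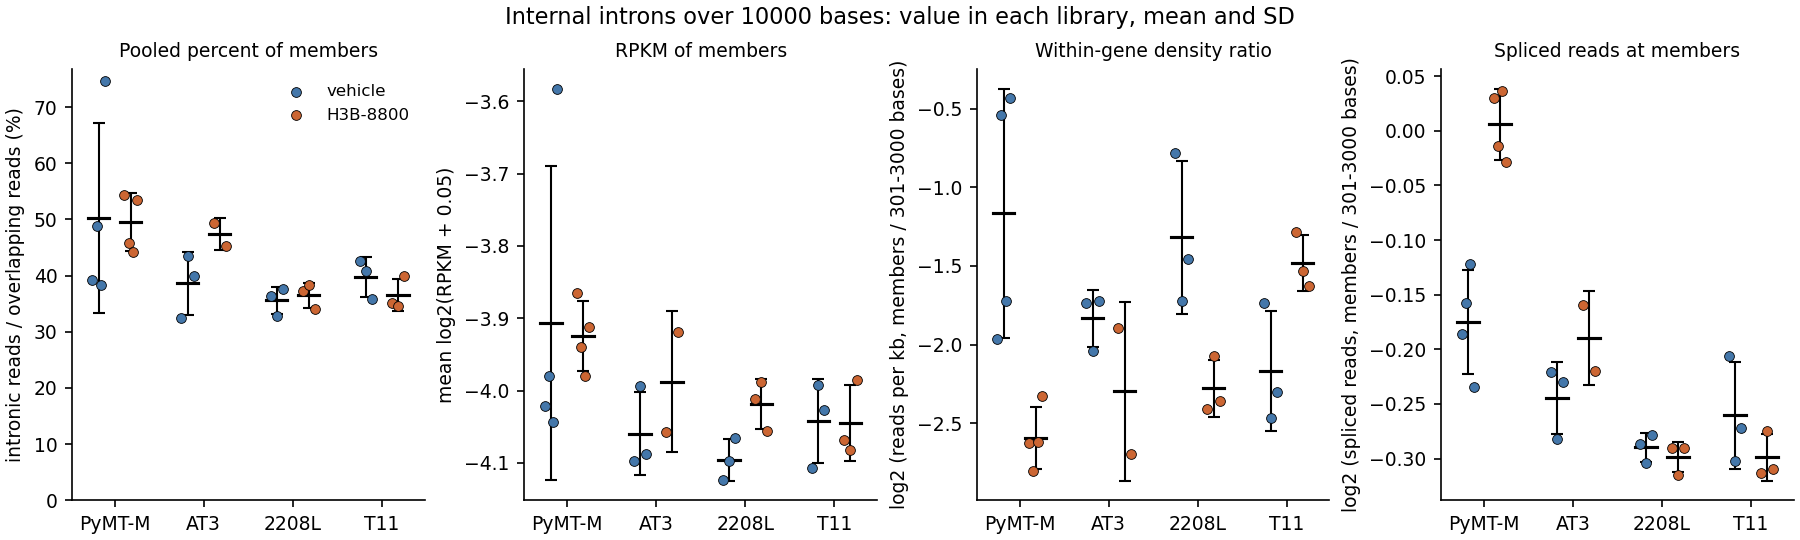
From left to right: percent of reads at long internal introns that lie inside, mean log2(RPKM + 0.05), log2 ratio of read density in long over shorter introns of the same genes, and log2 ratio of spliced reads per intron in the same classes. Points are libraries, lines are group means and bars SD; T11 is as labelled. PyMT-M vehicle replicate 4 is the high point at 74.6% on the left, and the ratio of densities separates vehicle from H3B-8800 in PyMT-M and 2208L.

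Tested one by one, long internal introns were called less often than introns at large in each model, and in PyMT-M mostly in the other direction. A change here is in intronic reads per spliced read of the gene, tested in edgeR (quasi-likelihood) with Benjamini-Hochberg adjustment over all 52042 introns at 0.05. AT3 had 205 calls among 2815 long introns, where 20.1% of all introns were called in either direction. Of them 194 (6.89%) rose, where 19.8% of all introns tested were called higher, and 11 (0.391%) fell, where 0.304% were called lower. In 2208L, with 206 calls where 21.7% of all were called, 179 (6.36%) rose against 21.2% of all introns, and 27 (0.959%) fell against 0.515%. In PyMT-M, with 1223 calls (43.4%) where 60.2% of all were called, 335 (11.9%) rose against 54.6% of all introns, and 888 (31.5%) fell against 5.58%. In T11, with 185 calls where 20.7% of all were called, 145 (5.15%) were lower in libraries labelled H3B-8800 against 20% of all introns, and 40 (1.42%) higher against 0.715%. The median log2 change was -0.72 in PyMT-M, 0.80 in AT3, 0.30 in 2208L and -0.27 in T11, beside 1.57, 1.10, 1.07 and -0.84 over all introns tested.

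The fall in PyMT-M rested in large part on vehicle replicate 4. Without that library 920 long introns were called (60.5% of all introns), of which 694 rose (58.1% of all introns were called higher) and 226 fell (2.43% of all called lower), and their median change was 0.33. Of the 888 that fell with all libraries, 225 still fell, 56 had a positive change and none rose. Of the 335 that rose, 332 still did. Without vehicle replicates 2 and 4, 697 were called (49.9% of all), of which 612 rose (47.8% of all) and 85 fell (2.07% of all), with a median of 0.64. Long introns can pass the filter of 5 reads through the PyMT-M libraries alone; of the 2334 that averaged 5 reads over the other 3 models, 321 rose (13.8%, against 53.9% of all introns so filtered) and 689 fell (29.5%, against 5.73%), with calls from the same fit. AT3 calls turned on 1 library too: of the 194 that rose, 40 were called without H3B-8800 replicate 2 and 128 without replicate 1, while 191 and 190 stayed positive, with median log2 changes of 2.15 and 2.77. The 1 H3B-8800 library then left in AT3 is assumed to vary like those of the other groups. The 205 calls became 47 without H3B-8800 replicate 2 (4% of all introns were then called), 66 without vehicle replicate 1 (8.5% of all) and 104 without vehicle replicate 3 (10.6% of all). In 2208L the number called, 206, was 82 without vehicle replicate 1 (9.92% of all introns), 112 without H3B-8800 replicate 1 (13.5% of all) and 132 without H3B-8800 replicate 2 (17.6% of all). In T11, 185 became 88 without the library labelled H3B-8800 replicate 2 (12.5% of all), 98 without H3B-8800 replicate 1 (12.5% of all) and 113 without labelled vehicle replicate 2 (11.1% of all). Averaged over PyMT-M, AT3 and 2208L, 730 long introns were called (58.6% of all), of which 534 rose (56% of all introns were called higher) and 196 fell (2.58% of all). Averaged over the 4 models, with T11 taken by its labels, 367 were called (37.9% of all), of which 287 rose (37.0% of all introns were called higher) and 80 fell (0.894% of all); without PyMT-M vehicle replicate 4, 574 were called (42.2% of all), 532 higher (41.4% of all) and 42 lower (0.734% of all), and without AT3 H3B-8800 replicate 2 the number called in either direction went from 367 to 168 (23.8% of all).

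Among the long introns the medians and shares followed length. In PyMT-M the share that fell was 16.5% up to 20000 bases (1570 tested), 41.4% up to 50000 (926 tested), 73.0% up to 100000 (256 tested) and 93.7% above 100000 (63 tested), and the median log2 change went from -0.037 through -1.34 and -2.64 to -3.42. The order was the same without vehicle replicate 4, with 3.82%, 7.67%, 25.8% and 46.0% falling and medians of 0.81, 0.0029, -0.85 and -1.26. Vehicle replicate 2 was also high at the longer introns. Above 20000 bases its log2 ratio of densities was -0.41, beside -0.29 in replicate 4 and -2.20 and -1.88 in replicates 1 and 3. The length classes were not counted without vehicle replicates 2 and 4, so the order in PyMT-M may rest on these libraries. In 2208L the medians were 0.53, 0.18, -0.22 and -0.38, and the share that rose went from 10% through 2.16% and 0.781% to none of 63. AT3 showed a shallower order, with medians of 0.83, 0.80, 0.72 and 0.60. T11 medians lay between -0.28 and -0.23 in all 4 length classes. Shorter introns had medians of 2.03 in PyMT-M, 1.23 in AT3, 1.31 in 2208L and -1.01 in T11. These are counts and medians over introns, with no test of the order, and longer introns pass the filter of a mean of 5 reads at a lower density. Some pass it only through the PyMT-M libraries, where vehicle replicate 4 is high. The PyMT-M shares by length were not counted over introns that pass in the other models, so they may be raised by the filter.

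**Figure D2:**
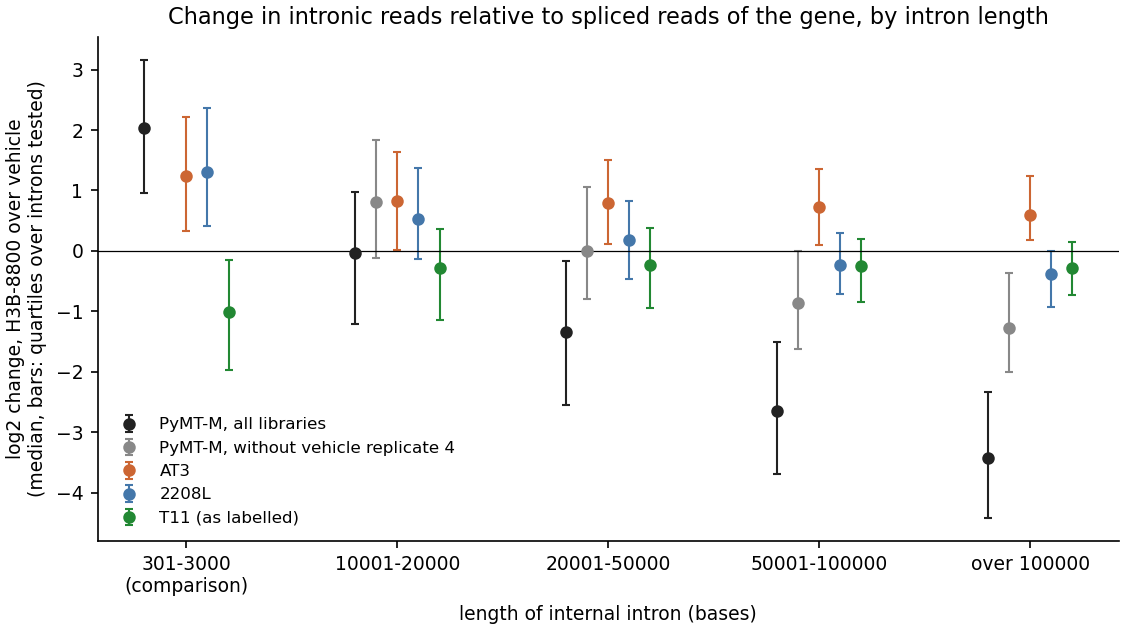
Median log2 change in intronic reads per spliced read of the gene, H3B-8800 over vehicle, by length of the internal intron (points), with the quartiles over the introns tested (bars); the first class, the shorter introns, is for comparison. PyMT-M drops from 2.03 in that class to -3.42 above 100000 bases with all libraries, and reaches -1.26 there without vehicle replicate 4; T11 (as labelled) lies between -0.28 and -0.23 in the 4 long classes.

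The within-gene ratio of densities, which weights reads and not introns, was lower with H3B-8800 in every length class in PyMT-M, AT3 and 2208L. In PyMT-M it differed by -1.16 in the shortest of the 4 classes and by -3.17 above 100000 bases, and by -1.01 and -2.70 without vehicle replicate 4. In 2208L the differences were -0.68 and -1.67, and in AT3 -0.45 and -0.95. T11 differed by 0.70 and 1.19. The smallest exact permutation p was 0.0286 in PyMT-M, and no class passed adjustment over the 16 tests (adjusted p = 0.146 at the smallest). The class above 100000 bases holds 126 introns of 99 genes.

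A set of 62 long introns in 62 genes rose in PyMT-M, AT3 and 2208L alike, and 39 of these had no overlap between vehicle and H3B-8800 libraries in any of the 3 models. The 62 are 2.20% of the long introns tested, where 10.9% of all introns tested were called higher in the 3 models, and the 39 are 1.39%, where 9.66% of all were called higher without overlap. In T11 60 of the 62 had a negative change by the labels (96.8%, against 99.5% of all introns higher in the 3 models), 33 of them called (53.2%, against 74.7%), and none was called higher. Of the introns that rose, AT3 and 2208L shared 71, which is 36.6% of those in AT3 and 39.7% of those in 2208L, where the shared introns of all lengths are 55.9% and 52.3%. Of the 62, 9 had no annotated exon inside, at least 10 spliced reads on average in every group and no overlap, and they are described next.

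Intron 4 of Met, the gene of the receptor tyrosine kinase for hepatocyte growth factor, rose in all 3 models. Reads inside made up 52.3%, 40.6%, 33.3% and 81.6% of the reads overlapping it in PyMT-M vehicle and 95.5%, 89.0%, 90% and 87.7% with H3B-8800. In 2208L, where the gene was read most deeply (1462 to 3957 overlapping reads a library), the values were 5.81%, 6.12% and 5.70% in vehicle and 37.8%, 34.4% and 26.5% with H3B-8800. AT3 had 2.78%, 8.70% and 20.4% in vehicle and 34.3% and 61.9% with H3B-8800. No group overlapped with its vehicle, and PyMT-M vehicle replicate 4 was again the highest vehicle library. The log2 change was 3.31 ± 0.50 (SE) in PyMT-M (edgeR, adjusted p = 1.54e-06), 3.21 ± 0.68 in AT3 (edgeR, adjusted p = 0.00139) and 3.05 ± 0.55 in 2208L (edgeR, adjusted p = 0.000256). T11 had 54.5%, 43.8% and 32.8% labelled vehicle and 4.17%, 10.9% and 5.95% labelled H3B-8800, a change of -3.09 ± 0.68 (edgeR, adjusted p = 0.00122).

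Intron 5 of Rbms1, which encodes a protein that binds RNA and single-stranded DNA, also rose in all 3 models. PyMT-M vehicle had 8.92%, 10.4%, 7.59% and 38.0% of the reads inside, and H3B-8800 73.0%, 45.2%, 69.9% and 62.8%. AT3 vehicle had 6.35%, 8.05% and 9.80%, and the H3B-8800 libraries 15.2% and 48.1%. 2208L had 4.76%, 3.41% and 4.03% in vehicle and 30.6%, 31.5% and 13.2% with H3B-8800. The groups did not overlap in any of these, and they did not overlap in T11, with 17.4%, 27.8% and 38.0% labelled vehicle and 15.0%, 5.75% and 12.5% labelled H3B-8800. The log2 change was 3.12 ± 0.57 in PyMT-M, 2.76 ± 0.68 in AT3 and 2.97 ± 0.71 in 2208L.

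Intron 30 of Ascc3, the gene of a DNA and RNA helicase that works on stalled ribosomes and alkylated DNA, had the largest change of the 9 in AT3. AT3 vehicle libraries had 0 of 37, 0 of 26 and 4 of 32 reads inside, and the H3B-8800 libraries 15 of 33 and 69 of 87. In PyMT-M the percents were 13.8, 13.7, 5.71 and 56.2 in vehicle and 83.6, 74.5, 66.7 and 72.2 with H3B-8800, and in 2208L 4.08, 4.08 and 8 in vehicle and 39.4, 38.2 and 38.2 with H3B-8800. The log2 changes were 5.13 ± 0.98 in AT3 (edgeR, adjusted p = 0.000551), 2.75 ± 0.63 in PyMT-M and 3.54 ± 0.85 in 2208L. T11 ran the other way by its labels, at -3.26 ± 0.79.

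The other 6 were intron 2 of Zfp91 (an E3 ubiquitin ligase with zinc fingers), intron 4 of Brms1l (a subunit of the Sin3 histone deacetylase complex), intron 3 of Hdgfrp2 (a chromatin reader), intron 2 of Gna12 (a G protein alpha subunit), intron 25 of Ltn1 (the E3 ligase listerin of ribosome quality control) and intron 2 of Gtpbp1 (a GTPase). Their log2 changes ran from 1.61 ± 0.51 (Gtpbp1) to 4.21 ± 0.62 (Hdgfrp2) in PyMT-M, from 1.82 ± 0.63 (Gtpbp1) to 3.15 ± 0.81 (Gna12) in AT3, and from 1.90 ± 0.71 (Gna12) to 3.14 ± 0.75 (Hdgfrp2) in 2208L. In Hdgfrp2 the PyMT-M percents went from 9.38, 25, 12.7 and 31.4 to 80.7, 76.3, 74.5 and 74.4, and the T11 percents were 18.3, 75.1 and 72.6 labelled vehicle and 9.71, 12 and 14.5 labelled H3B-8800. In Gna12 they went from 0, 14.6, 14.4 and 31.4 to 56.5, 39.4, 46.1 and 52.3 in PyMT-M. Over all 9 introns the PyMT-M call held without each library in turn. The AT3 call was lost in 8 of the 9 without H3B-8800 replicate 2, with changes from 0.63 to 4.30 that were all positive, in 4 without vehicle replicate 1, in 3 without vehicle replicate 3 and in 1 without H3B-8800 replicate 1. Between 1 and 3 of the 9 lost the 2208L call when any 1 library of that model was left out. 

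**Figure D3:**
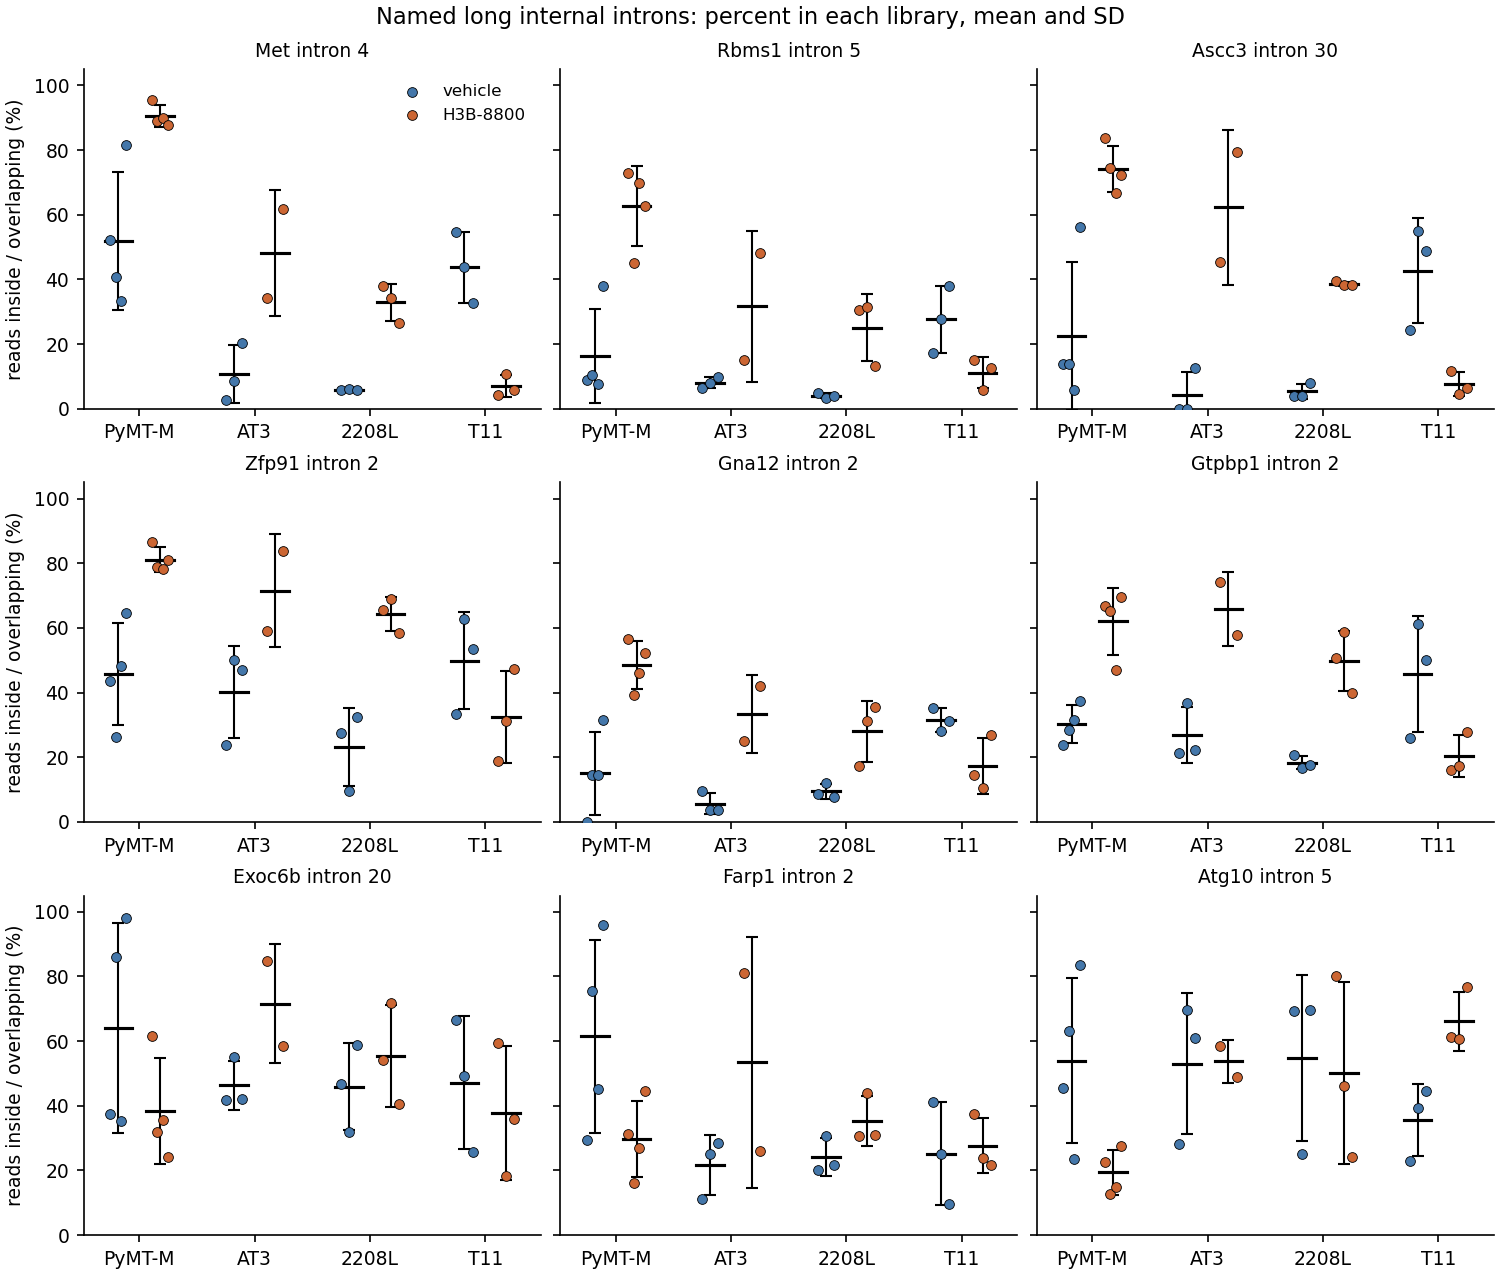
Percent of overlapping reads that lie inside each of 9 long internal introns, by library (points), with the group mean (line) and SD (bar); T11 is as labelled. The upper 6 introns rise with H3B-8800 without overlap in PyMT-M, AT3 and 2208L, and the lower 3, the longest, show PyMT-M vehicle replicates 4 and 2 as the high points, at 98.0% and 85.9% in Exoc6b.

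Other introns were named for the largest rise in PyMT-M or 2208L. Intron 2 of H6pd, which encodes the hexose-6-phosphate dehydrogenase of the endoplasmic reticulum, had 32.4%, 12.5%, 22.6% and 28.6% inside in PyMT-M vehicle and 90.8%, 91.0%, 90.4% and 88.8% with H3B-8800, a log2 change of 4.49 ± 0.48 (edgeR, adjusted p = 5.43e-09). In 2208L it stood at 57.1%, 37.0% and 64.0% in vehicle and 68.3%, 73.5% and 75.9% with H3B-8800 (1.05 ± 0.51; edgeR, adjusted p = 0.135). Intron 5 of Acot7, an acyl-CoA thioesterase, and intron 3 of Tceanc2 rose by 3.52 ± 0.68 and 3.23 ± 0.60 in PyMT-M. Of the introns that met the rule for naming, the 3 with the largest fitted rise in 2208L had no read inside in any vehicle library: intron 2 of Swap70 (a Rac-binding protein) had 0 of 15, 32 and 29 reads in vehicle and 14 of 52, 12 of 44 and 4 of 37 with H3B-8800, intron 6 of Tead1 (a transcription factor of the Hippo pathway) 0 of 12, 25 and 21 and then 12 of 35, 4 of 28 and 6 of 30, and intron 9 of Gatb (a mitochondrial tRNA amidotransferase subunit) 0 of 16, 13 and 14 and then 4 of 12, 2 of 8 and 4 of 20. All 3 were called in 2208L (edgeR, adjusted p from 0.00632 to 0.0457), and no fold is given against vehicle groups at 0.

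The longest introns without an annotated exon inside followed vehicle replicates 4 and 2 of PyMT-M. Intron 20 of Exoc6b, a subunit of the exocyst, is 121663 bases long and had 18 of 48, 122 of 142, 12 of 34 and 572 of 584 reads inside in PyMT-M vehicle, and 50 of 81, 14 of 44, 20 of 56 and 8 of 33 with H3B-8800. Intron 2 of Farp1, a guanine nucleotide exchange factor of neurons and other cells, spans 105071 bases and had 29.4%, 75.4%, 45.2% and 95.8% inside in vehicle and 31.3%, 16.2%, 27.0% and 44.6% with H3B-8800. Intron 5 of Atg10, an enzyme of autophagosome formation, spans 85179 bases and had 45.5%, 63.0%, 23.7% and 83.7% in vehicle and 22.7%, 12.7%, 14.8% and 27.6% with H3B-8800. Vehicle and H3B-8800 overlapped in each. All 3 fell in PyMT-M, with log2 changes of -3.81 ± 1.0, -3.58 ± 0.85 and -3.17 ± 0.67 (edgeR, adjusted p = 0.00264, 0.00103 and 0.000153), and of -1.52, -1.40 and -1.96 without vehicle replicate 4. Without vehicle replicates 2 and 4 none was called, and the changes were 0.39, -0.38 and -1.29. In AT3 and 2208L none of the 3 passed the test; in T11 Atg10 was higher in libraries labelled H3B-8800 (2.42 ± 0.79; edgeR, adjusted p = 0.0266).

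Lists of genes chosen for this tissue and drug were counted the same way. In PyMT-M 11.9% of all long introns tested rose and 31.5% fell, beside 54.6% and 5.58% of all introns; without vehicle replicate 4 these were 24.7% and 8.03% of long introns, beside 58.1% and 2.43%. In a list of fragile site and other very long genes, 40 long introns of 9 genes were tested. Of these 25 fell and none rose in PyMT-M, and 9 fell and 5 rose there without vehicle replicate 4. In AT3 2 rose, and in 2208L 1 fell. Among genes of receptor kinases and growth signalling (40 introns of 17 genes), 5 rose and 17 fell in PyMT-M, 11 rose and 6 fell without vehicle replicate 4, 3 rose in AT3 and 2 in 2208L, Met in each. Among chromatin regulators (35 introns of 21 genes) 2 rose and 16 fell in PyMT-M, and 5 and 6 without that library. Of cell adhesion, polarity and cytoskeleton genes (43 introns of 19 genes) 5 rose and 19 fell, and then 8 and 8. Of exchange factors and GTPase-activating proteins (49 introns of 19 genes) 1 rose and 24 fell, and then 8 and 3. Ubiquitin ligases and proteases (21 introns of 15 genes) had 2 and 11, then 4 and 2; tumor suppressors and DNA repair genes (19 of 13 genes) 2 and 6, then 3 and 3; and genes of the spliceosome and RNA processing (16 of 9 genes) 1 and 7, then 3 and 1. In AT3 and 2208L 0 to 3 introns of each list rose, and 1 fell in all, in 2208L. Of all long introns tested, 6.89% rose and 0.391% fell in AT3, beside 19.8% and 0.304% of all introns. In 2208L 6.36% of long introns rose and 0.959% fell, beside 21.2% and 0.515% of all introns. With so few introns per list, nothing is read about a list from its AT3 and 2208L counts. List medians in PyMT-M ran from -2.07 for the fragile site and other very long genes to -0.50 for tumor suppressors. The median was -0.72 over all long introns tested and 1.57 over all introns tested. Without vehicle replicate 4 the list medians ran from -0.37 to 0.28.

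Among the introns with the smallest p in their lists, those of Nsd1, Ank3, Arhgap35, Vti1a and Trip12 held an annotated exon. Intron 2 of Nsd1, a histone H3 lysine 36 methyltransferase, had 29.3%, 34.8%, 26.4% and 73.6% inside in PyMT-M vehicle and 87.4%, 68.3%, 82.5% and 83.2% with H3B-8800 (2.18 ± 0.48). Intron 10 of Ank3, the gene of ankyrin-G, rose by 2.62 ± 0.39 in PyMT-M, 1.94 ± 0.48 in AT3 and 1.51 ± 0.47 in 2208L. Intron 5 of Arhgap35 (a GTPase-activating protein) rose by 3.68 ± 1.1 in 2208L. It had 2 intronic reads over the 2208L vehicle libraries and 38 with H3B-8800, so the size of this change rests on a count near the floor. Others fell: intron 4 of Vti1a, a SNARE of endosomal transport, went from 69.8%, 68.4%, 67.8% and 92.8% in PyMT-M vehicle to 52.1%, 42.5%, 39.0% and 62.6% (log2 change -2.45 ± 0.49, and -1.27 without vehicle replicate 4). Intron 2 of the ubiquitin ligase gene Trip12 fell in PyMT-M (log2 change -2.50 ± 0.59, and -1.29 without vehicle replicate 4), and had -0.85 with no call without vehicle replicates 2 and 4.

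A single long intron was called lower in PyMT-M, AT3 and 2208L: intron 2 of Mgst2, a microsomal glutathione S-transferase, at chr3:51664611-51677564 in mm10. It lies outside the naming rule and was picked after its values were seen, and an annotated exon lies inside it. Of all introns tested, 5.58%, 0.304% and 0.515% were called lower in these models taken singly. The share of all introns lower in the 3 models together was not counted. AT3 had 84.5%, 93.4% and 79.4% inside in vehicle and 34.1% and 54.5% with H3B-8800, and 2208L 52.0%, 77.6% and 79.2% in vehicle and 30.7%, 42.5% and 26.6% with H3B-8800, without overlap. PyMT-M had 6, 4, 9 and 5 overlapping reads in its vehicle libraries and 2 in each H3B-8800 library, so its groups cannot be told apart by percent. The PyMT-M call rests on 22 intronic reads over the vehicle libraries and 4 over the H3B-8800 libraries. In T11 the labels ran opposite, with 30.8%, 49.5% and 35.1% labelled vehicle and 84.2%, 84.3% and 91.6% labelled H3B-8800. The log2 changes were -3.69 ± 0.84 in AT3 (edgeR, adjusted p = 0.00268), -2.29 ± 0.65 in 2208L (edgeR, adjusted p = 0.0117), -3.25 ± 1.0 in PyMT-M (edgeR, adjusted p = 0.00823) and 3.36 ± 0.67 in T11 (edgeR, adjusted p = 0.000493). The 2208L call was lost without H3B-8800 replicate 1 or 3 (log2 changes of -2.24 and -2.05).

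The drug effect on single long introns was compared between models in the same fit. PyMT-M and 2208L differed at 10 long introns (0.355% of 2815), where 0.104% of all introns tested were called. Of these 5 were higher (0.0788% of all) and 5 lower (0.025% of all) in PyMT-M. The number was 29 without PyMT-M vehicle replicate 1 (0.300% of all introns), 15 without vehicle replicate 3 or 4 (0.167% and 0.294% of all), and 2 to 5 without any other library of these models. H6pd intron 2 was among the 5 higher in PyMT-M, with a difference of 3.45 ± 0.69 (edgeR, adjusted p = 0.0259). The other four, chosen after their values were seen, were in Manba, Ttc28, Gdpd5 and Cadm1, and the 5 lower in PyMT-M in Ppp1r12b, Emid1, Clec16a, Zfp52 and Tmem135. Ttc28 intron 12 had 72 intronic reads over the PyMT-M vehicle libraries and 564 over the H3B-8800 libraries, and 28 and 14 in 2208L. The intron of Tmem135 averaged 5 reads only with the PyMT-M vehicle libraries, where it is high, so nothing is read from its fall in PyMT-M. PyMT-M and AT3 differed at none of the 2815 in edgeR, where 0.00192% of all introns were called. At an unadjusted p under 0.05 in edgeR there were 845, and the share over all introns was not counted. DESeq2 called 140 of the 2815 (4.97%), where it called 1.07% of all introns. In edgeR the number called was 186 (0.932% of all) without PyMT-M vehicle replicate 1 and 175 (0.853% of all) without PyMT-M vehicle replicate 3. 2208L and AT3 differed at none in edgeR, where 0.00192% of all were called. For this pair 175 had an unadjusted p under 0.05 in edgeR, again with no share over all introns. DESeq2 called 3 (0.107%), where it called 0.0327% of all.

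Most reads inside long introns came from few of them. The 20 with most intronic reads held 15.3% to 45.8% of all reads inside long introns per library. Of these 20, 18 hold an annotated exon, and 9 a processed pseudogene, among them intron 7 of Mbd5, intron 6 of Mapkap1 and intron 4 of Ddah1. Intron 2 of Chd9, the gene of a chromatin remodeler, had the most, and differed between models: 22639 to 96530 reads in each PyMT-M library, 1239 to 2501 in each AT3 library, and 50 to 178 in each T11 and 2208L library. Its percent in PyMT-M overlapped between treatments, at 94.9% to 98.3% in PyMT-M vehicle and 97.4% to 98.0% with H3B-8800 (log2 change relative to the gene 0.30 ± 0.35; edgeR, adjusted p = 0.469). Exons of Chd9 itself and of antisense transcripts are annotated inside it. Intron 2 of Gphn, the gene of gephyrin, followed, with 2992 to 11760 reads in every library and no annotated exon inside.

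The introns nearest the threshold of 10000 bases were these. Just above it, intron 4 of Tor3a and intron 3 of Matn2, of 10002 bases each, had log2 changes of -0.68 and 1.91 in PyMT-M. Just below it, intron 4 of Bphl and intron 8 of Neil3, of 9999 bases each, had -3.21 and 0.026. In AT3 the 4 values were -0.92, 0.26, -1.09 and 0.44.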

How the data were processed

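HISAT2 2.0.4 and the builds mm10 and hg38 are named in the submitters' processing notes; the counting tool is not given in the sources used here. Intron positions were those of mm10: GENCODE M21 lists 99.8% of the long internal introns. The authors deposited, for each intron of 1 transcript per gene, counts of reads inside it, counts of reads overlapping it, and RPKM. The deposited RPKM equals the intronic count per kilobase over library totals of 41000000 to 78000000 reads. Of the nonzero intronic counts at long introns 78.8% were even, against 47.3% of the spliced counts, so reads from 1 fragment are not independent counts. Both mates of a pair seem to count inside introns but not among spliced reads, which would raise every percent inside; the even share was 74.1% to 83.1% per library inside introns. Libraries held 10863779 to 22377777 overlapping reads.

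Spliced reads were overlapping minus intronic reads. edgeR 4.0.16 (R 4.3.3; robust quasi-likelihood, 8 group means, 25 libraries) was fitted to intronic counts with an offset of log(spliced reads of the gene + 0.5); the SE is the log2 change over the square root of F. DESeq2 1.42.0 and limma 3.58.1 were alternatives. The edgeR script was tested on simulated data. Per-library measures were compared by 2-sided exact permutation within models. p-values measure the spread between tumors. The long introns, gene lists and tests were chosen with earlier results of these data known. Introns were named by a fixed rule: called higher in 3 models without overlap (up to 10; 9 passed), lower likewise (none passed), largest rises in PyMT-M and 2208L (3 each), the 3 longest, the smallest p per gene list, and 2 on each side of 10000 bases. Predicted genes and chromosome 18 were not named. For 1 list, the intron picked by this rule is not reported here. Intron sequences were not used here. Replicate numbers did not pair libraries: correlations of same-numbered libraries ran from -0.378 to 0.321 over genes.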

Additional observations from a re-analysis of the deposited data

Results flagged for a closer look

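In groups of 4, a library far from the others was found in 6 of 66 groups of values looked at, where chance gives about 1 in 20. PyMT-M vehicle replicate 4 was that library in 5 of the 6. It stood at -3.58 in mean log2(RPKM + 0.05) over long introns of expressed genes, and had 38.0% of reads inside Rbms1 intron 5, 56.2% inside Ascc3 intron 30, 92.8% inside Vti1a intron 4 and 80% inside Tor3a intron 4. The other was PyMT-M H3B-8800 replicate 1, at 73.7% inside Neil3 intron 8, an intron just under 10000 bases, below the other 3.

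The difference between libraries labelled H3B-8800 and vehicle was compared between models in 24 exact permutation tests, and 4 passed adjustment. In 3 of the 4 one side was T11, whose libraries ran against the labels of the other models, so these are differences by label, from which no drug effect is read. The log2 ratio of densities differed by -2.11 between PyMT-M and T11 as labelled (adjusted p = 0.0343, exact) and differed by -1.65 between 2208L and T11 (adjusted p = 0.04, exact). The log2 ratio of spliced reads differed by 0.19 between PyMT-M and 2208L (adjusted p = 0.0429, exact) and by 0.22 between PyMT-M and T11 (adjusted p = 0.0343, exact). In edgeR, 10 long introns differed between PyMT-M and 2208L.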

How the results depend on the processing

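Long introns called in PyMT-M (1223) numbered 1972 with no filter (28.6% of long introns tested and 31.8% of all introns). They numbered 634 with a mean of 20 intronic reads (48.5% and 67.7%) and 748 in limma (26.6% and 57.9%). Without annotated exons there were 460 (38.5% and 60.2%), and above 20000 bases 680 (54.6% and 60.2%). Without vehicle replicates 2 and 4 there were 697 (24.8% and 49.9%). Where counts differ by over 1.5 times, those of the others follow in the same order, with both shares. AT3 had 84 without exons (7.02% and 20.1%), 47 above 20000 bases (3.775% and 20.1%) and 364 without those 2 libraries (12.9% and 25.3%). 2208L had 76 (6.355% and 21.7%) and 34 (2.73% and 21.7%), and 389 with its own libraries alone (13.8% and 26.9%). T11 had 67 (5.60% and 20.7%), 40 (3.21% and 20.7%) and 297 (10.55% and 25.1%). The 4-model mean had 150 (12.5% and 37.9%), 94 (7.55% and 37.9%) and 578 (20.5% and 39.35%). The mean of the other 3 models, 730 with T11 in the fit (25.9% and 58.6%), was 708 without the 6 T11 libraries (25.15% and 58.6%). PyMT-M and 2208L differed at 162 with no filter (2.35% and 0.448%) and at 5 without exons (0.418% and 0.104%). They differed at 5 above 20000 bases (0.402% and 0.104%) and at 64 in DESeq2 (2.27% and 1.78%). PyMT-M and AT3 differed at 395 with no filter (5.73% and 0.779%) and at 1 in limma (0.0355% and 0.215%). That pair differed at 1 without T11 (0.0355% and 0.00769%) and at 140 in DESeq2 (4.97% and 1.07%). 2208L and AT3 differed at 9 with no filter (0.1305% and 0.0238%) and 3 in DESeq2 (0.107% and 0.0327%). Fewer introns were eligible without exons and above 20000 bases; otherwise the cause was not tested.

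Above 20000 bases the pooled percent differed by -3.35 points in 2208L and -0.54 over 4 models, log2 RPKM by -0.0059 over 4 models and -0.0071 without T11, and spliced reads by 0.054. Without PyMT-M vehicle replicates 2 and 4 the 4-model values were 4.29 points, 0.064 (RPKM), -0.37 (density) and 0.042 (spliced), with exact permutation p = 0.0459, 0.0154, 0.0704 and 0.0811. RPKM differed by 0.0037 in PyMT-M with a pseudocount of 0.5 and by 0.0010 in T11 with 0.01. Taking medians over genes, density differed by -0.34 over 4 models, in only 92 genes with enough intronic reads in both classes in every library. Medians of spliced reads differed by -0.036 in AT3, 0.031 in 2208L, 0.041 in T11, 0.027 over 4 models and 0.022 without T11. Spliced reads differed by 0.0089 in T11 without exons and by 0.042 over 4 models against introns of intermediate length.

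With 1 library left out at a time, calls ranged over 920 to 1287 (PyMT-M), 47 to 224 (AT3), 82 to 169 (2208L), 88 to 189 (T11), 168 to 574 (mean), 2 to 29 (PyMT-M against 2208L), 0 to 186 (PyMT-M against AT3) and 0 to 0 (2208L against AT3). Of all introns tested, 60.5% were called at the PyMT-M count of 920 and 56.95% at 1287. In 2208L 9.92% of all were called at 82 and 17.0% at 169, and in T11 12.5% at 88 and 24.4% at 189. AT3 had 23.3% of all at 224, and the mean 42.2% at 574. PyMT-M and 2208L had 0.01345% of all at 2 and 0.300% at 29, and PyMT-M and AT3 0.932% at 186. The 47 and 168 come from a fit with 1 H3B-8800 library in AT3. In the order PyMT-M, AT3, 2208L, T11 and 4 models, pooled percent ranged from -4.76 to 7.33, 5.62 to 11.2, -0.44 to 2.16, -5.14 to -1.79 and 0.43 to 3.45. RPKM ranged from -0.063 to 0.091, 0.0030 to 0.14, 0.062 to 0.096, -0.036 to 0.021 and 0.015 to 0.059. Density ranged from -1.70 to -1.18, -0.87 to -0.061, -1.16 to -0.69, 0.54 to 0.90 and -0.64 to -0.44. Spliced reads ranged from 0.16 to 0.20, 0.024 to 0.085, -0.016 to -0.00077, -0.060 to -0.012 and 0.039 to 0.055.

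Replicate numbers are only numbers here. With a replicate block, PyMT-M calls were 802 (28.5% of long introns tested and 57.45% of all introns). PyMT-M and 2208L then differed at 6 (0.213% and 0.0711%) and PyMT-M and AT3 at 2 (0.071% and 0.00961%). With the block, density differed by -1.43 in PyMT-M (exact permutation p = 0.125, the smallest 4 pairs allow) and -0.53 over 4 models (exact permutation p = 0.062). Spliced reads differed by 0.18 and 0.049 in the same order. Of 928 alternatives for 61 called values of named introns, 819 kept call and direction, 107 lost the call and 2 reversed, Exoc6b in PyMT-M (0.39 without vehicle replicates 2 and 4) and Acot7 (Acot7 intron 5 log2 change, AT3: -0.00464 without H3B-8800 replicate 2 and up to 3.22 without vehicle replicate 2). Depth limits most long introns: 2815 of 7902 could be tested.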
